A study of Mus musculus with 9 samples.

Results

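The comparison set 6 mouse liver tumors with a Smad7 construct against 3 tumors without it, out of 9 tumors in all. The 6 Smad7 tumors were the 3 of the group S7HP (tumors 9, 11 and 12) and the 3 of the group S7HP+Snail (tumors 13, 14 and 15), chosen by their labels, and the controls were the 3 LHP tumors (2, 3 and 6), which the names of the deposited tables tie to a Luc construct. All 9 were liver tumors of C57BL/6 mice aged 11 weeks, and the letters H and P, which all 3 group names share, are not spelled out in the labels. How the constructs were delivered, what drove them and whether the tumors came from separate animals is not stated either, so p-values measure the spread among these tumors, which may be partly technical. The values are log2(normalized count + 1) from 3′ libraries over 24421 gene symbols. The 14215 genes tested had 3 or more tumors at or above 4 on this scale. The question was which genes separated all Smad7 tumors from all LHP tumors, whether or not Snail had been added.

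TGF-β ligands bind paired serine/threonine kinase receptors, which phosphorylate receptor Smads that enter the nucleus with Smad4 and act on target genes. Smad7 is an inhibitory Smad that blocks this step at the receptor and is itself induced by TGF-β. Snail, encoded by Snai1, is a TGF-β-induced repressor of epithelial genes that binds E-boxes and acts in epithelial-mesenchymal transition, in which cells lose junctions and gain matrix and contractile genes.

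The libraries had been brought to the same distribution, so total depth is lost. Their totals were 19910396 to 19911234 normalized counts, 7750 to 8392 symbols were listed at 0, and relative depth, estimated from the steps between the lowest values, ran from 0.565 (S7HP tumor 11) to 1.96 (S7HP+Snail tumor 14). A count of 3 reads lay at log2 values of 1.22 to 2.64, and values below that carry no order. Hepatocyte markers were measured in all 9 tumors, with summed levels of 14.97 to 15.71 (log2) in LHP, 16.72 to 18.51 in S7HP and 16.53 to 17.60 in S7HP+Snail.

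Smad7 itself was lower in the tumors named for it. It lay at 10.23, 10.50 and 9.49 in LHP tumors 2, 3 and 6, at 6.46, 6.81 and 6.28 in the S7HP tumors and at 7.31, 6.77 and 8.0 in the S7HP+Snail tumors, with no overlap. The difference was -3.13 ± 0.33 (limma SE; adjusted p = 0.000717). Snai1 was likewise lower, at 9.93, 11.16 and 10.99 in LHP, 6.17, 6.34 and 6.92 in S7HP and 8.53, 7.31 and 8.47 in S7HP+Snail (difference -3.40 ± 0.37, limma adjusted p = 0.000754). A 3′ library counts a construct only if it carries the gene's own 3′ end, which is not stated, so neither value checks the labels. Hras (difference 0.19, limma adjusted p = 0.715) and Trp53 (-0.48, 0.317) did not pass the test.

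Of the 14215 genes tested, 1219 were higher in the Smad7 tumors (8.58%) and 1290 were lower (9.07%) by limma at a Benjamini-Hochberg adjusted p under 0.05, together 17.7%. Among these 2509 genes, 1945 also had all 6 Smad7 values on one side of all 3 LHP values, 952 of them higher (6.7% of genes tested) and 993 lower (6.99%). Of all tested genes, 19.5% did not overlap between the groups, 9.63% of them higher and 9.89% lower. The filter on low values kept some genes through 1 group only: 431 tested genes had all 3 LHP tumors under 4, of which 146 were called higher, and 79 had all 6 Smad7 tumors under 4, of which 71 were called lower. The 79 had to be separated, since all 3 LHP tumors then lay at or above 4. The 431 needed only 3 of the 6 Smad7 tumors at or above 4, so separation was favored but not forced. The values of all such genes are a description. Those named below include Cyp2a4, Cyp2a22, Cyp2b9, Cyp2b13, Cidec, Ocln, Tff3, Igf2os and Tceal5 on the higher side and Foxc2, Csf2, Serpinb2 and the Samt1 run on the lower. A change of more than 2 log2 units was seen in 449 of the genes that rose and in 451 of those that fell. The counts fell when a control was left out. Without LHP tumor 2, 3 or 6 the calls were 643, 539 and 545 higher and 640, 461 and 445 lower. In the fit as reported and in all 16 alternative settings, 632 genes were called the same way (340 higher, 292 lower), and these are named as stable calls in what follows. Some symbols stand for the same reads. Counting sets of called symbols whose values agreed within 0.1 in every tumor once left 2472 profiles, and 25 protocadherin gamma symbols (median difference -0.83) and 8 Ugt1a symbols (1.97), which share their last exons, were the largest sets.

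For most of these genes the interval for S7HP+Snail minus S7HP was too wide to place the Smad7 groups together or apart. A narrow interval was less frequent, and a call between the Smad7 groups more frequent, than among all tested genes. Of the 2509 called genes, 613 (24.4%) had a 95% limma interval for S7HP+Snail minus S7HP that lay within 1 log2 unit of 0, against 30.9% of all tested genes. A further 162 (6.46%) were also called between S7HP+Snail and S7HP, against 2.3% of all tested genes and 1.41% of the 11706 uncalled ones. The remaining 1734 (69.1%) fell in neither class. These counts changed with the libraries used, to 38 to 194 genes called in both contrasts and 197 to 557 with a narrow interval when 1 tumor was left out. Without S7HP tumor 11 the count called in both was 38, and without LHP tumor 3 it was 58.

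Where the groups differed, S7HP+Snail mostly lay nearer to LHP. Among genes called higher, the median difference from LHP was 1.82 for S7HP and 1.29 for S7HP+Snail, and 898 (73.7%) had a lower mean in S7HP+Snail than in S7HP. The medians for genes called lower were -1.70 and -1.29, and 891 (69.1%) had a higher mean in S7HP+Snail. Both differences share the 3 LHP tumors, and over all tested genes 51.7% were lower in S7HP+Snail than in S7HP. Of the called genes that differed between the Smad7 groups, 80 that rose against LHP were lower with Snail and 5 higher, while 60 that fell were higher with Snail and 17 lower.

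**Figure D1:**
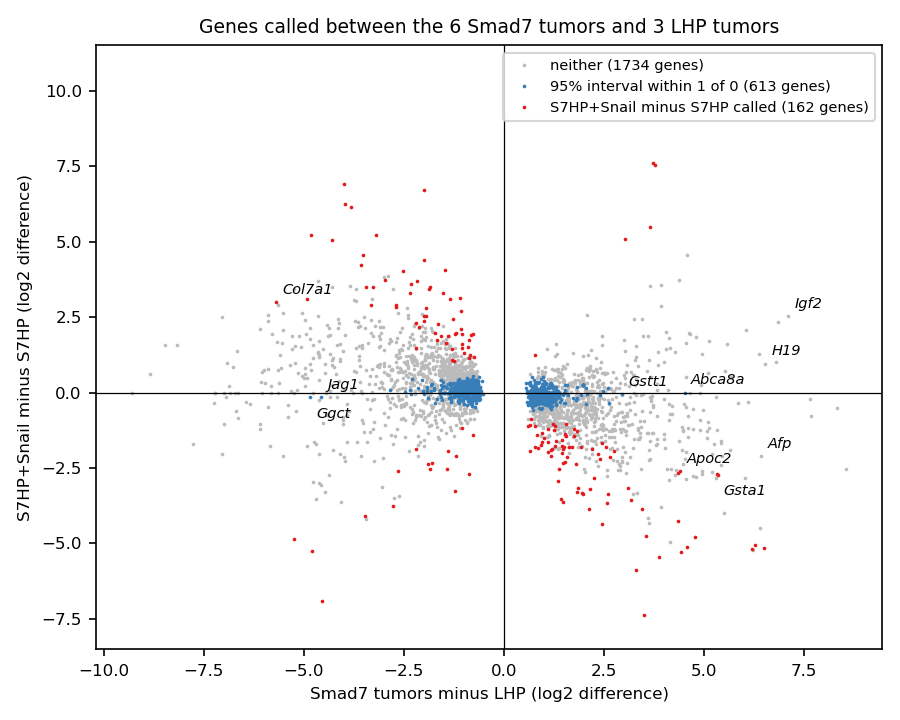
Each point is 1 of the 2509 genes called between the 6 Smad7 tumors and the 3 LHP tumors. The x axis is the log2 difference from LHP and the y axis the log2 difference S7HP+Snail minus S7HP. Blue points (613) have an interval within 1 of 0, red points (162) were called between the Smad7 groups, and red points lie mostly at the lower right (80 genes) and upper left (60 genes).

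The genes with the widest empty gap between the 6 Smad7 tumors and the 3 LHP tumors, among those with a mean level of at least 7 log2 units, included H19, Igf2 and Afp on the higher side. Being picked for their gap, they are described rather than tested further. H19, an imprinted noncoding RNA of the fetal liver, lay at 9.52, 10.22 and 8.26 in the LHP tumors and between 14.51 and 16.75 in the Smad7 tumors (median 16.14). Its neighbor Igf2, a fetal growth factor, lay at 7.32, 8.01 and 5.94 against 10.79 to 15.99 (median 15.20). Afp, the fetal serum protein used as a liver cancer marker, lay at 7.61, 7.22 and 7.81 against 11.00 to 16.32 (median 14.40). The lowest Smad7 tumor of each gene was thus at least 2 log2 units above the highest LHP tumor, though the Smad7 tumors themselves spread over several log2 units for Igf2 and Afp. The differences were 6.53 ± 0.52 for H19, 7.11 ± 0.93 for Igf2 and 6.44 ± 0.83 for Afp (SE; limma adjusted p = 0.000199, 0.00178 and 0.00173). In bulk tumors, fewer cells of a type and less RNA per cell cannot be told apart, here and in all results that follow.

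Cyp2a4, a steroid-hydroxylating cytochrome P450, had the widest gap of this set, with LHP values of 0.29, 2.26 and 3.27 and Smad7 values of 7.71 to 10.72. Its LHP values were at or near the level of 3 reads, so its difference of 7.64 ± 0.81 depends on the added count of 1. Apela, which encodes a peptide ligand of the apelin receptor, varied widely in LHP, from a listed 0 to 3.44 and 5.64, against 8.42 to 10.94. Itih5, of the inter-α-trypsin inhibitor heavy chains that bind hyaluronan, was measured well above the floor in all 9 tumors. It lay at 6.15, 6.48 and 5.84 in LHP, at 12.23, 11.95 and 12.17 in S7HP and at 10.48, 10.28 and 11.84 in S7HP+Snail, a difference of 5.34 ± 0.33 (40.4-fold; limma adjusted p = 5.15e-05).

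Apoc2, the apolipoprotein that activates lipoprotein lipase, showed a graded pattern with very little spread. Its values were 9.07, 9.46 and 9.03 in LHP, 15.34, 14.55 and 14.79 in S7HP and 12.27, 12.32 and 12.30 in S7HP+Snail. The Smad7 tumors lay 4.41 ± 0.21 above LHP (limma adjusted p = 1.75e-05), and S7HP+Snail lay 2.60 log2 units below S7HP (interval -3.14 to -2.06, adjusted p = 0.00277). The readthrough symbol Apoc4-apoc2 overlaps it and gave nearly the same difference (4.36). Its neighbors in the apolipoprotein cluster, looked up after its values were seen, did not pass the test, at differences of 1.39 for Apoc1 (limma adjusted p = 0.0639), 0.95 for Apoc4 (0.211) and 0.86 for Apoe (0.13). The remaining genes of widest gap were Abca8a, BC048546, Gsta1 and Ifi27l2b, with differences of 4.12 to 5.32.

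The 12 genes of widest gap on the lower side had varied known roles. Ggct, the γ-glutamylcyclotransferase of glutathione breakdown, lay at 12.17, 12.96 and 12.63 in LHP, 8.03, 7.59 and 7.79 in S7HP and 7.52, 7.42 and 8.05 in S7HP+Snail. The 6 Smad7 tumors spanned less than 1 log2 unit, and Ggct fell by 4.85 ± 0.24 (28.9-fold; limma adjusted p = 1.75e-05). Jag1, a membrane ligand of Notch receptors, lay at 13.60, 13.93 and 14.02 in LHP against 8.89 to 9.99 (median 9.16), and fell by 4.57 ± 0.27 (23.7-fold; limma adjusted p = 4.23e-05). For both genes the 95% interval for S7HP+Snail minus S7HP lay within 1 log2 unit of 0 (-0.76 to 0.48 for Ggct, -0.84 to 0.53 for Jag1).

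Tnnt2, the cardiac form of troponin T, lay at 13.02, 13.57 and 12.48 in LHP and at 4.81 to 8.47 in the Smad7 tumors, a difference of -6.09 ± 0.61 (limma adjusted p = 0.000615). Pmepa1, a Smad-binding membrane protein induced by TGF-β, lay at 13.03, 13.02 and 12.52 against 6.54 to 9.80, a difference of -4.85 ± 0.44 (limma adjusted p = 0.000532). Dynap had the largest difference of this set, -8.85 ± 1.62, and also the widest spread among the Smad7 tumors, from 0 to 8.69. The other genes of the set were Col7a1, Map2 (a neuronal microtubule protein), Fbln2, Spsb1, Adamdec1, Add2 (an adducin of the membrane skeleton) and the adhesion molecule Ncam1, with differences of -5.70 to -3.61. All 24 genes of widest gap, higher and lower, were called in every alternative setting. Their choice by gap in the same tumors made this likely, so it is no further support.

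**Figure D2:**
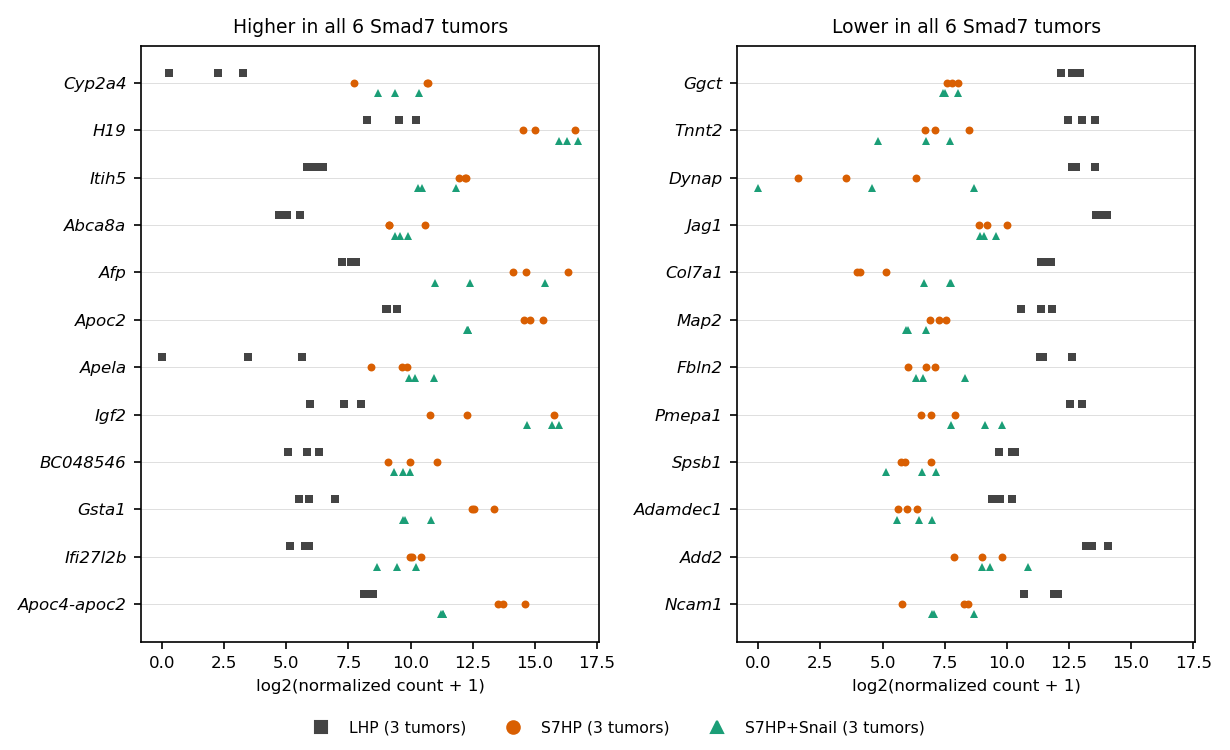
Log2(normalized count + 1) of the 12 genes called higher and the 12 called lower with the widest gap between the 6 Smad7 tumors and the 3 LHP tumors, 1 symbol per tumor. Squares are LHP, circles S7HP and triangles S7HP+Snail. In each row the squares stand apart from the other symbols; Ggct, Jag1 and Abca8a have both Smad7 groups at the same level, while Apoc2, Gsta1 and Col7a1 have the triangles nearer to LHP.

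The genes that changed most with the interval for Snail held within 1 log2 unit were Abca8a, Gstt1, Hrsp12, Stxbp6 and Nostrin on the higher side and Ggct, Jag1, Gfod1, Mast4 and Myo10 on the lower. Abca8a, an ABC transporter of the lipid-transport subfamily, lay at 4.70, 5.55 and 5.04 in LHP, 10.59, 9.13 and 9.14 in S7HP and 9.39, 9.56 and 9.89 in S7HP+Snail, and both Smad7 groups were 4.52 above LHP. Gstt1, a theta-class glutathione S-transferase, rose by 2.96 ± 0.31, and Nostrin, which traffics endothelial nitric oxide synthase, by 2.47 ± 0.25 (limma adjusted p = 0.000717 and 0.000615). Hrsp12, which removes reactive imines formed in amino acid breakdown, rose by 2.62 ± 0.20, with an interval for S7HP+Snail minus S7HP of -0.88 to 0.17. Myo10, the myosin of filopodia, lay at 11.08, 11.42 and 10.92 in LHP and at 8.37 to 9.34 in the Smad7 tumors, and fell by 2.35 ± 0.27 (limma adjusted p = 0.000887). All 10 were stable calls with no overlap between LHP and the Smad7 tumors, and each mean difference from LHP exceeded 2 log2 units. They were picked among called genes for a large change in the same tumors, so this is a description.

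Gene lists for pathways were compared with all tested genes, whose median difference was 0.01 and of which 8.58% were called higher and 9.07% lower. Collagen genes were lower nearly throughout: 14 of 17 tested members fell and none rose, with a median of -2.28. Col1a1, the main chain of type I collagen, lay at 13.66, 13.67 and 13.75 in LHP, 10.40, 10.05 and 11.04 in S7HP and 11.82, 10.81 and 10.65 in S7HP+Snail, and fell by 2.90 ± 0.30 (limma adjusted p = 0.000615). Col1a2 and Col5a1 fell by 3.04 ± 0.37 and 3.13 ± 0.34. Col7a1, which forms the anchoring fibrils beneath epithelia, lay at 11.37, 11.64 and 11.77 in LHP, at 3.97, 4.08 and 5.14 in S7HP and at 6.66 to 7.77 in S7HP+Snail. It fell by 5.70 ± 0.35 and was the 1 collagen also called between the Smad7 groups, 2.98 higher with Snail (limma adjusted p = 0.00802). Of the 14 collagens, 7 were stable calls, and 7 were called without LHP tumor 3.

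Other matrix and crosslinking genes fell in 14 of 28 members and rose in none (median -1.32, with 9, 7 and 6 called without LHP tumor 2, 3 or 6 and 8 with only 2 groups in the fit). Lox, a collagen-crosslinking oxidase, lay at 12.98, 13.56 and 12.86 in LHP against 8.86 to 11.02 and fell by 3.07 ± 0.49 (limma adjusted p = 0.00431). Fbln2, a matrix glycoprotein, fell by 4.92 ± 0.48, and Fbn1, the microfibril protein fibrillin, by 2.20 ± 0.35. Lamb1, a laminin chain, fell by 2.01 ± 0.31, but its S7HP+Snail values of 10.94 to 11.54 lay close below the LHP values of 11.91 to 12.05, and it was not called with 2 groups in the fit (limma adjusted p = 0.106). Among matrix proteases, 7 of 20 fell and 1 rose (median -1.19, with 0 rising without any 1 of the LHP tumors, S7HP tumor 9 or S7HP tumor 12). They included Adam12 (-3.13 ± 0.46), Adam19 (-2.63 ± 0.32), the procollagen peptidase Adamts2 (-1.79 ± 0.26) and Bmp1 (-1.15 ± 0.20), all stable calls. Integrins and adhesion receptors fell in 7 of 17 members and rose in 1 (median -0.83, with 2 called lower without LHP tumor 3). Itga5, a fibronectin receptor chain, fell by 3.23 ± 0.52. The heparan sulfate proteoglycans of the list moved apart, Gpc1 falling by 3.49 ± 0.48 and Gpc3, an oncofetal glypican, rising by 4.16 ± 0.62.

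Contractile and cytoskeletal genes fell in 15 of 20 members and rose in none (median -1.33, with 7, 8 and 8 called without LHP tumor 2, 3 or 6). Acta2, smooth muscle actin, lay at 11.91, 13.23 and 13.58 in LHP and at 9.64 to 11.28 in the Smad7 tumors, and fell by 2.61 ± 0.44 (limma adjusted p = 0.00578). Flna, the actin crosslinker filamin A, fell by 2.17 ± 0.30 and the intermediate filament gene Nes by 2.77 ± 0.44. Mesenchymal transcription factors fell in 11 of 20 members and rose in none (median -1.89, with 6, 5 and 5 called without LHP tumor 2, 3 or 6). Prrx1, a homeobox factor of mesenchyme, lay at 11.48, 11.17 and 11.51 in LHP, 7.28, 6.57 and 7.66 in S7HP and 9.40, 10.15 and 7.56 in S7HP+Snail, a difference of -3.28 ± 0.49. Foxc2 fell by 4.43 ± 0.66, Foxs1 by 2.48 ± 0.44 and Runx2 by 1.38 ± 0.22. Zeb1, an E-box repressor that defines this list, did not pass (difference -0.60 ± 0.30, limma adjusted p = 0.188).

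Markers of stromal cells were set beside these groups. Stellate cell and fibroblast markers fell in 5 of 17 and rose in none (median -1.51; 2 called without LHP tumor 3 or 6, and 8 without S7HP+Snail tumor 14). Their summed level was 14.11 to 14.86 in LHP, 12.43 to 13.38 in S7HP and 13.33 to 13.98 in S7HP+Snail, so that every Smad7 tumor lay below every LHP tumor. Pdgfrb, the receptor that marks these cells, fell by 2.33 ± 0.40 and Acta2 as given above. The collagen, matrix, contractile and mesenchymal factor lists moved the same way as these markers, and the part of such cells in those results was not tested. Endothelial markers fell in 2 of 15 and rose in 1, none without overlap (0 lower without LHP tumor 3 or 6, 1 without S7HP tumor 9, and 0 higher without any 1 of 8 tumors, S7HP tumor 11 being the exception). These shares were near the 9.07% lower and 8.58% higher of all genes tested. Their summed levels were 13.26 to 13.50 in LHP, 12.83 to 13.52 in S7HP and 13.42 to 13.84 in S7HP+Snail.

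**Figure D3:**
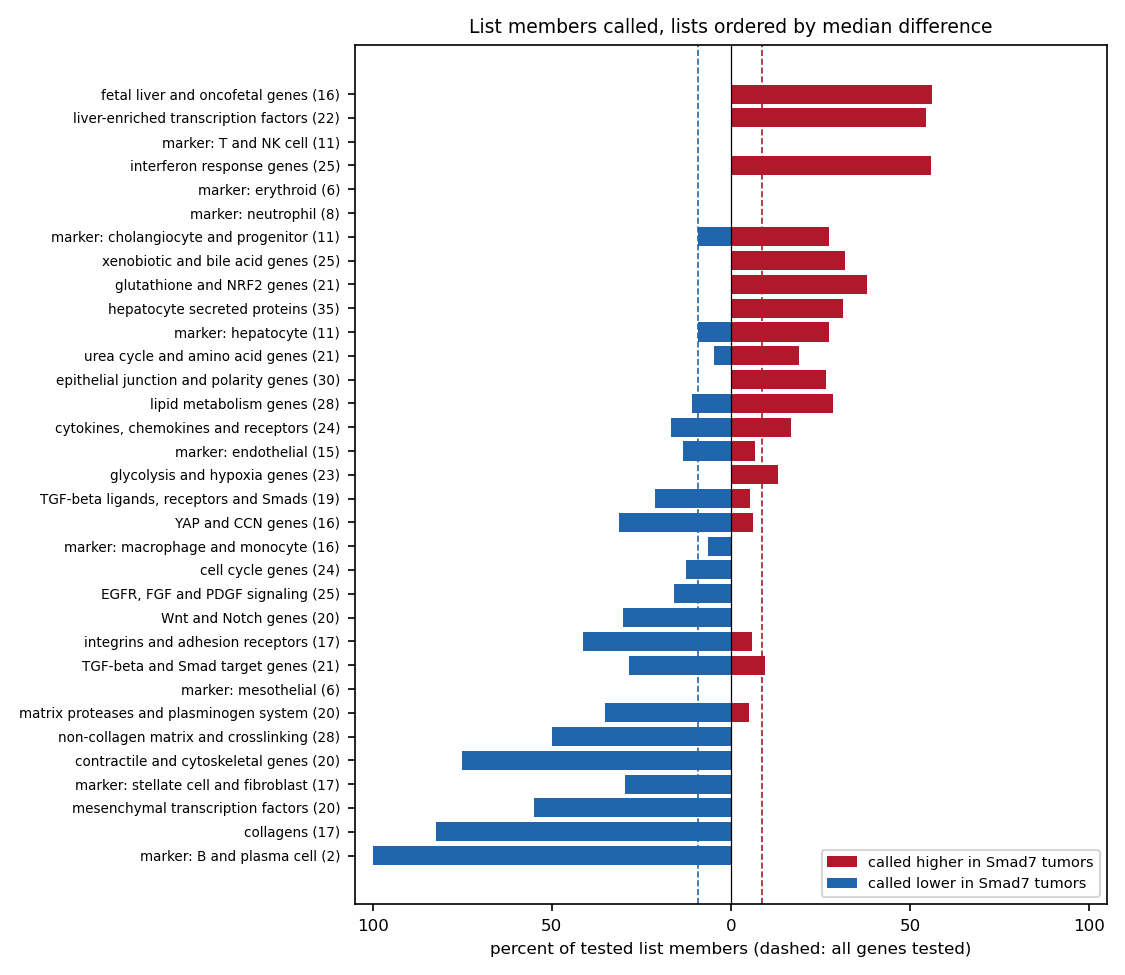
Percent of the tested members of each gene list called higher (right) or lower (left) in the 6 Smad7 tumors against the 3 LHP tumors, with the number tested in parentheses. Dashed lines are the shares of all genes tested (8.58% higher, 9.07% lower). Collagens, with 14 of 17 lower, lie near the bottom, and fetal liver genes, with 9 of 16 higher, at the top.

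In the TGF-β pathway itself, 5 of 19 ligands, receptors and Smads and 8 of 21 target genes passed the test, against 17.7% of all genes tested. Over all genes 8.58% were called higher and 9.07% lower, and the shares of these lists that rose were near or below the former. Of 21 target genes, 6 fell and 2 rose (median -0.88, with 0 rising without LHP tumor 3 or 6 and 1 without LHP tumor 2, S7HP tumor 9 or S7HP tumor 12), and of 19 ligands, receptors and Smads, 4 fell and 1 rose (median -0.44, with 2 called lower without any 1 of the LHP tumors). Inhba, the activin βA chain, lay at 13.80, 13.32 and 12.17 in LHP, 8.96, 7.55 and 8.26 in S7HP and 10.87, 7.49 and 9.84 in S7HP+Snail. It fell by 4.27 ± 0.68 (limma adjusted p = 0.00427). Acvr1, a type I receptor for BMPs and activins, fell by 1.82 ± 0.26, and the latent TGF-β binding protein gene Ltbp1 by 1.59 ± 0.38 (not called without any 1 of the LHP tumors). Tgfbr2, the type II TGF-β receptor, was the member that rose, by 0.92 ± 0.20, with LHP values of 9.90 to 10.34 and Smad7 values of 10.62 to 11.59 (limma adjusted p = 0.0158, up to 0.0656 without LHP tumor 2 or 6).

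Among the targets, Skil, which encodes the Smad corepressor SnoN, lay at 11.91, 12.15 and 11.84 in LHP and at 9.21 to 10.56 in the Smad7 tumors and fell by 2.08 ± 0.19 (limma adjusted p = 0.000532). The related corepressor Ski fell by 1.21 ± 0.24, not called without LHP tumor 3 (adjusted p = 0.0537). Fstl3, an activin antagonist, fell by 2.45 ± 0.38, but its values matched those of the adjacent symbol Prss57, so the reads of these genes cannot be told apart. Pmepa1, Skil, Fstl3 and Ski were named for having no overlap with LHP, so their separation is no further result. Of the 21 target genes, 6 were called lower without overlap, against 6.99% of all genes tested. Ctgf, which defines TGF-β target lists, did not separate the groups (difference -0.23 ± 0.53, limma adjusted p = 0.793).

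Epithelial junction and polarity genes rose in 8 of 30 members and fell in none (median 0.77), a count that dropped to 3 without any 1 of the LHP tumors and to 5, 5 and 4 without S7HP tumor 9, 11 or 12. Gjb1, the gap junction connexin of hepatocytes, lay at 11.10, 11.45 and 11.60 in LHP, 14.57, 13.36 and 13.88 in S7HP and 13.46, 13.47 and 12.63 in S7HP+Snail. It rose by 2.18 ± 0.30 (limma adjusted p = 0.00213). F11r, a junctional adhesion molecule, rose by 2.17 ± 0.39. Ocln, which encodes the tight junction protein occludin, lay at 3.56, 3.44 and 2.15 in LHP, 8.02, 7.31 and 7.90 in S7HP and 5.09, 4.16 and 4.49 in S7HP+Snail. The Smad7 groups differed by 3.16 (limma adjusted p = 0.0204 for S7HP+Snail minus S7HP). Ocln passed the filter on low values only through the Smad7 tumors. It was named for having no overlap with LHP, so its separation is no further result. It was not called with only 2 groups in the fit (adjusted p = 0.0619). Cdh1, E-cadherin, overlapped between the groups and did not pass (difference 1.85 ± 0.67, limma adjusted p = 0.085), with 10.54 and 11.28 in S7HP+Snail tumors 14 and 15 against 11.08 to 11.96 in LHP. Of the 8 genes called, 3 were also called between the Smad7 groups and 2, Gjb1 and F11r, were stable calls.

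The Ocln promoter is shown because this gene had the largest difference between the Smad7 groups among those named from the junction list, and the motif is the E-box that Snail is known to bind. The sequence (RefSeq, GRCm38.p6, chr13:100552669-100552968, minus strand, 1 of 2 promoters listed for the gene) runs from 250 bases before to 50 bases after the start, with CAGGTG in capitals at position 7 after the start.

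Ocln: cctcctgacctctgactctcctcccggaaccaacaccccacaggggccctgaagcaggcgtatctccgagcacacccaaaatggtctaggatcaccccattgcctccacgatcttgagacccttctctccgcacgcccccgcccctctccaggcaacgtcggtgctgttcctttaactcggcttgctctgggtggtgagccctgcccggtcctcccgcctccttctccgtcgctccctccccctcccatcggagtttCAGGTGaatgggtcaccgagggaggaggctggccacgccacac

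CAGGTG was searched on both strands and occurred in 20.2% of all 32851 promoters of this length, so its presence is a description of this sequence only.

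Among liver factors and secreted hepatocyte proteins, every call was on the higher side, and many members did not pass. Liver-enriched transcription factors rose in 12 of 22 members and fell in none (median 1.55, with 7, 6 and 6 called without LHP tumor 2, 3 or 6). Hnf4a, a nuclear receptor that maintains hepatocyte genes, lay at 6.73, 7.47 and 6.34 in LHP, 10.19, 9.91 and 9.61 in S7HP and 9.17, 8.47 and 8.45 in S7HP+Snail. It rose by 2.45 ± 0.30 (limma adjusted p = 0.00122). Foxa2, a pioneer factor of endoderm, rose by 2.93 ± 0.42 and the bile acid receptor gene Nr1h4 by 1.67 ± 0.29, with Nr1h4 at 9.35 to 10.16 in the Smad7 tumors against 7.29, 8.40 and 8.35. Foxa3 rose by 1.53 ± 0.25 and was 1.38 lower in S7HP+Snail than in S7HP (limma adjusted p = 0.0404). The list median was 2.17 for S7HP and 0.88 for S7HP+Snail, each against the same 3 LHP tumors.

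Secreted hepatocyte proteins rose in 11 of 35 members and fell in none (median 0.91, with 6, 7 and 7 called without LHP tumor 2, 3 or 6). Rbp4, the plasma retinol carrier, lay at 11.46, 12.69 and 12.27 in LHP and at 13.67 to 15.22 in the Smad7 tumors and rose by 2.47 ± 0.31 (limma adjusted p = 0.00134). Serpinf2, the plasmin inhibitor, rose by 2.70 ± 0.34, Itih2 by 2.28 ± 0.38 and Ambp by 2.00 ± 0.23. Alb, serum albumin, lay at 13.46, 14.07 and 12.98 against 15.56 to 17.32 and rose by 2.60 ± 0.45 (6.08-fold; limma adjusted p = 0.00645). Not all hepatocyte genes moved this way. Ttr, the thyroxine carrier, and Cyp2e1, an ethanol-oxidizing P450, did not pass the test (differences 0.53 ± 0.46 and 0.08 ± 0.66, limma adjusted p = 0.463 and 0.949). Hamp, which encodes the iron hormone hepcidin and is a BMP-Smad target, fell by 2.85 ± 0.57, from 9.52, 10.11 and 9.59 to between 5.21 and 9.04 (limma adjusted p = 0.0108, 0.0537 without LHP tumor 3).

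Fetal liver and oncofetal genes rose in 9 of 16 members and fell in none, with the highest list median, 3.37, and 7 of the 9 were stable calls. Beside H19, Igf2 and Afp, Spink1, a trypsin inhibitor found in liver cancer, lay at 5.86, 7.19 and 7.67 in LHP and at 10.21 to 13.86 in the Smad7 tumors and rose by 5.43 ± 0.70 (limma adjusted p = 0.00173). The tetraspanin gene Tspan8 lay at 11.40, 9.11 and 9.73 against 12.93 to 15.43 and rose by 4.48 ± 0.51 (limma adjusted p = 0.00098). The list median against LHP was 3.70 for S7HP+Snail and 2.72 for S7HP. Lin28b, an oncofetal regulator that defines the list, did not rise (difference -3.27 ± 1.27, limma adjusted p = 0.104).

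Glutathione and NRF2-related genes rose in 8 of 21 members and fell in none (median 0.98), and 6 of them were stable calls. Gsta1 lay at 5.52, 5.90 and 6.95 in LHP, 12.56, 13.35 and 12.46 in S7HP and 10.82, 9.70 and 9.78 in S7HP+Snail, a rise of 5.32 ± 0.38 (limma adjusted p = 0.000123). Gsta4 rose by 5.21 ± 0.47, Gsta2 by 3.66 ± 0.48 and Gstt1 as given above, all transferases that conjugate glutathione to toxic compounds. Xenobiotic and bile acid genes rose in 8 of 25 members and fell in none (median 1.14, with 3, 5 and 4 called without LHP tumor 2, 3 or 6). Ugt1a1, which conjugates bilirubin, lay at 9.40, 9.71 and 9.52 in LHP and at 10.82 to 12.08 in the Smad7 tumors and rose by 1.97 ± 0.26 (limma adjusted p = 0.00167). Since all Ugt1a symbols share their 3′ exons and gave the same values, this is the level of the locus. Sult1a1, a phenol sulfotransferase, rose by 2.66 ± 0.53 and Abcc2, the canalicular export pump for conjugates, by 2.20 ± 0.44 (not called without LHP tumor 2, adjusted p = 0.0517).

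Lipid genes were mixed, with 8 of 28 higher and 3 lower (median 0.29, with 5 higher without LHP tumor 3 or S7HP tumor 9, and 1 lower without LHP tumor 2 or 6). The 3 lower were a share near the 9.07% of all genes tested. Cidec, a lipid droplet fusion protein, was near the floor in LHP at 1.22, 2.26 and 1.22 and lay at 8.08, 8.13 and 8.34 in S7HP and 6.89, 6.06 and 5.86 in S7HP+Snail (difference 5.66 ± 0.41), having passed the filter through the Smad7 tumors only. Dgat2, the last enzyme of triglyceride synthesis, rose by 2.21 ± 0.26 and was 1.87 lower in S7HP+Snail than in S7HP (limma adjusted p = 0.0178). Mlxipl, the carbohydrate-responsive factor ChREBP, rose by 2.38 ± 0.38. Urea cycle and amino acid genes rose in 4 of 21 and fell in 1 (median 0.85, with 1, 2, 2 and 2 higher without LHP tumor 2, LHP tumor 3, LHP tumor 6 or S7HP tumor 9). Otc, a urea cycle enzyme, rose by 2.30 ± 0.48 (not called without LHP tumor 2, adjusted p = 0.0596). Of 23 glycolysis and hypoxia genes 3 were called higher, a share near the 8.58% of all genes tested (median -0.41, with 0 and 1 higher without LHP tumor 2 or 6). Among them was Slc2a2, the hepatocyte glucose transporter, which rose by 2.19 ± 0.57 (limma adjusted p = 0.0293, not called without LHP tumor 2 or 6).

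Interferon response genes rose in 14 of 25 members and fell in none (median 1.30, with 8 and 7 called without LHP tumor 2 or 3). None of the 14 was called between S7HP+Snail and S7HP, against 6.46% of all called genes. Only 3 of the 14 had a limma interval for that difference within 1 log2 unit of 0. For the rest, a difference between the Smad7 groups was neither shown nor excluded. Usp18, which removes the ubiquitin-like protein ISG15, was the most even, at 4.11, 5.44 and 5.92 in LHP, 8.31, 8.87 and 8.70 in S7HP and 8.54, 8.47 and 8.57 in S7HP+Snail, a rise of 3.42 ± 0.37 (10.7-fold; limma adjusted p = 0.000754). Isg15 itself lay at 8.73, 8.31 and 9.35 against 10.01 to 11.66 and rose by 2.14 ± 0.28. Irf7, the factor that amplifies the interferon response, rose by 2.08 ± 0.28 and Ifi44 by 2.09 ± 0.26. These 4 genes were named for having no overlap with LHP, so their separation is no further result. Of the 25 members, 12 were called higher without overlap, against 6.7% of all genes tested.

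The Isg15 promoter is shown as that of a member with interferon response motifs. The sequence is from RefSeq on GRCm38.p6 (chr4:156200769-156201068, minus strand), with 3 overlapping matches to GAAA, any 2 bases, GAAA in capitals, beginning at positions -78 to -66 from the start.

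Isg15: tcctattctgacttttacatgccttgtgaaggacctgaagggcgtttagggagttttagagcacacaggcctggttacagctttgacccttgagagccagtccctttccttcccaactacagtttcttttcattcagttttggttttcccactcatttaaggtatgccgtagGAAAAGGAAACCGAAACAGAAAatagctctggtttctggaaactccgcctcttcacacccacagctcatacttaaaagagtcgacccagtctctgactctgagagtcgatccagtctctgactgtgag

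This pattern was searched on both strands and occurred in 3.44% of all promoters.

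Signaling, growth and immune lists were counted in the same way. Wnt and Notch genes fell in 6 of 20 (median -0.81, with 3, 2 and 3 called without LHP tumor 2, 3 or 6), of which Jag1 and the Notch target Heyl (-2.41 ± 0.50, not called without LHP tumor 3 or 6) had no overlap with LHP. YAP and CCN genes fell in 5 of 16 and rose in 1 (median -0.47, with 3, 2 and 1 lower without LHP tumor 2, 3 or 6), led by Axl, a receptor tyrosine kinase, at 13.01, 12.72 and 13.02 in LHP and 9.82 to 12.37 in the Smad7 tumors (difference -2.15 ± 0.32, limma adjusted p = 0.00277). EGFR, FGF and PDGF signaling genes fell in 4 of 25 (median -0.64, with 1 called without LHP tumor 3 or 6), among them Igf1r (-2.69 ± 0.52), which was 2.91 higher in S7HP+Snail than in S7HP (limma adjusted p = 0.0409) and was not called against LHP with 2 groups in the fit (0.0862). Of 24 cell cycle genes 3 were called lower, a share near the 9.07% of all genes tested (median -0.61, with 1 called without S7HP tumor 9 or any LHP tumor, and 6 without S7HP tumor 11). E2f1, which drives S phase entry, lay at 10.61, 11.21 and 11.56 against 9.02 to 9.88 and fell by 1.59 ± 0.26. Cytokine and receptor genes split evenly, with 4 of 24 higher and 4 lower (2 higher without LHP tumor 3; 1 lower without LHP tumor 2 or 3, and 2 without S7HP tumor 9, S7HP tumor 11 or LHP tumor 6). Cxcl5, a neutrophil-attracting chemokine, rose by 4.54 ± 0.70, and Ackr3, the atypical receptor for Cxcl12, fell by 4.40 ± 0.50, from 12.16, 13.00 and 11.87 to between 6.46 and 10.14 (limma adjusted p = 0.000966).

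Hepatocyte markers rose in 3 of 11 and fell in 1 (median 0.86; 1 higher without LHP tumor 2 or 3, and 0 lower without LHP tumor 3), and their summed levels, given above, did not overlap between LHP and the Smad7 tumors. The liver factor, secreted protein, glutathione and xenobiotic lists had calls on the higher side and none lower, and the part of hepatocyte content in those results was not tested. Cholangiocyte and progenitor markers rose in 3 of 11 and fell in 1 (5 higher without S7HP+Snail tumor 14; 0 lower without LHP tumor 2 or 3). Prom1, a progenitor marker, lay at 9.35, 6.75 and 7.51 in LHP and at 11.43 to 14.71 in the Smad7 tumors and rose by 5.09 ± 0.73 (limma adjusted p = 0.00268), while Sox9, a duct factor, fell by 1.73 ± 0.39 (not called without LHP tumor 2 or 3). The list's summed levels overlapped, at 16.60 to 17.50 in LHP and 15.20 to 18.50 in S7HP+Snail. Macrophage markers fell in 1 of 16 (Marco) and not at all without LHP tumor 2 or 6. T and NK cell, neutrophil, erythroid and mesothelial markers held no call. Both tested B and plasma cell markers, Jchain and Mzb1, fell (-4.92 and -4.03), with LHP tumors 2, 3 and 6 themselves at 10.15, 6.73 and 11.29 for Jchain, and neither was called without LHP tumor 2 or 6.

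Some called genes of the same direction stood side by side. Runs of at least 3 adjacent tested genes called the same way numbered 70 (38 higher, 32 lower) and held 260 of the 2509 called genes. After the protocadherin gamma and Ugt1a symbols, which are single signals, the longest runs held 6 genes. The cytochrome P450 run on chromosome 7 (GRCm38, 26061497 to 27037375) held Cyp2b13, Cyp2b9, Cyp2a4, Cyp2a5, Cyp2a22 and Cyp2a12. Cyp2b9 was listed at 0 in 3 of 3 LHP tumors and lay at 7.39, 6.16 and 4.50 in S7HP and 5.74, 6.59 and 4.67 in S7HP+Snail. Cyp2b13 was also listed at 0 in LHP and lay at 3.62 to 6.03. Both, with Cyp2a4 and Cyp2a22, passed the filter only through the Smad7 tumors. Cyp2a5 and Cyp2a22 were not called without any 1 of the LHP tumors. Cyp2a12, with LHP values of 6.60, 6.63 and 7.43, rose by 2.59 ± 0.50 (limma adjusted p = 0.00987). Reads of the near-identical genes Cyp2a4 and Cyp2a5 could be split between them by the counting.

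The aldo-keto reductase run on chromosome 13 (4049011 to 4279433), steroid- and carbonyl-reducing enzymes, held 5 Akr1c genes and a pseudogene, all 6 with no overlap, at differences of 2.13 to 4.60. Akr1c19 lay at 4.11, 5.09 and 6.06 in LHP and at 8.30 to 10.45 in the Smad7 tumors (difference 4.44 ± 0.45, limma adjusted p = 0.000615). The glutathione transferase run on chromosome 9 (78175914 to 78355788) held Gsta4, Gsta1 and Gsta2 among its 6 genes, with Gsta1 and the predicted gene Gm3776 so close in value that their reads may be shared. A further run of transferases on chromosome 10 (75771230 to 75837424) held Ddt, Gstt3, Gstt1 and Gstt2, at differences of 2.32 to 3.73, and a carboxylesterase run on chromosome 8 held 4 Ces2 symbols at 2.68 to 4.14. Alb, Afp and Afm, which form the albumin cluster on chromosome 5 (90460897 to 90553543), rose together, as did H19, Igf2 and Igf2os on chromosome 7 (142575529 to 142670356). The trefoil factor genes Tff3, Tff2 and Tff1 on chromosome 17, secreted by mucous epithelia, were all called. Tff3 lay at 3.56, 0 and 0 in LHP against 7.84 to 11.97, while Tff2 overlapped, with 2.00 in S7HP+Snail tumor 14 and 4.70 in LHP tumor 2, and was not called without any 1 of the LHP tumors (limma adjusted p up to 0.138 over its alternatives).

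Runs on the lower side included genes that were all but silent with Smad7. Samt1 and 3 neighbors, of which 4921511M17Rik had the same values as Samt1 and may stand for the same reads, on chromosome X (154001590 to 154120685) lay at 6.48 to 7.66 in the LHP tumors and were listed at 0 in 6 of 6 Smad7 tumors. Csf2, which encodes the cytokine GM-CSF and is named here after its values were seen, lay at 7.91, 5.09 and 5.57 in LHP and at or below 0.42 in the Smad7 tumors. It and the Samt1 run passed the filter only through the LHP tumors, so their calls are no independent support. Prl3d1, a placental lactogen gene with 2 called neighbors of its family on chromosome 13, lay at 10.14, 8.57 and 8.95 in LHP and below 3 in 5 of the 6 Smad7 tumors, with 7.40 in S7HP+Snail tumor 13 (limma adjusted p = 0.0136, not called without LHP tumor 2 or 6). Lrrk2, a kinase at the start of a 6-gene run on chromosome 15 (91673175 to 93491510), lay at 9.83, 10.31 and 9.13 against 4.08 to 6.54 and fell by 4.65 ± 0.40 (25-fold; limma adjusted p = 0.000315).

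**Figure D4:**
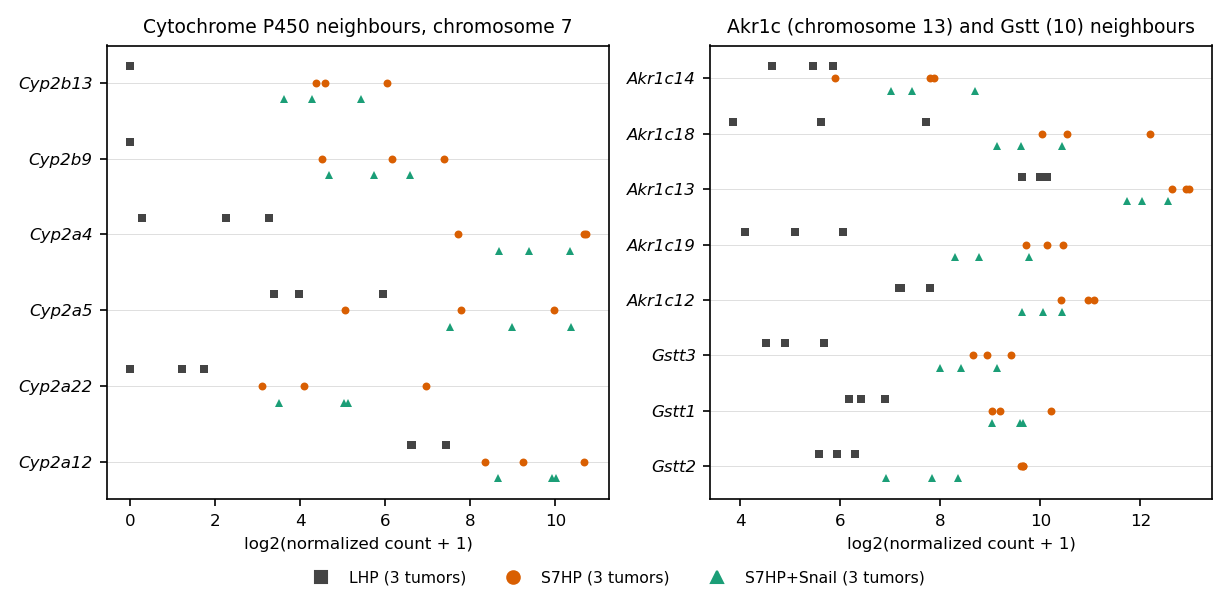
Log2(normalized count + 1) by tumor for genes of the cytochrome P450 run (left) and of the Akr1c and Gstt runs (right), in genome order. Squares are LHP, circles S7HP and triangles S7HP+Snail. Cyp2b13 and Cyp2b9 have all 3 squares at 0, and Cyp2a5 is the gene whose groups overlap.

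Calls were spread unevenly over chromosomes. On chromosome 15, 19.2% of 552 tested genes were called lower and 5.07% higher, with a median difference of -0.31. The median over its genes of each tumor's deviation from the gene's mean was 0.05, 0.23 and 0.34 in LHP tumors 2, 3 and 6 and 0.04 to -0.17 in the 6 Smad7 tumors. Chromosomes 19 (14.3%), 18 (13.9%), X (12.7%) and 2 (12.6%) had the next largest shares, against 9.07% called lower over all genes. Chromosomes 1, 6, 8, 9 and 13 exceeded that share by less, at 9.71% to 10.7%. On chromosome 18, 22 of the 48 genes called lower were protocadherin gamma symbols, which are a single signal. Its share thus overstates how many separate genes fell, and no excess is read from it. Chromosome 16 had the largest share of calls on the higher side among chromosomes with over 100 genes tested (12.1% of 429). Neither copy number nor clonality was measured, and their part in these shares was not tested.

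**Figure D5:**
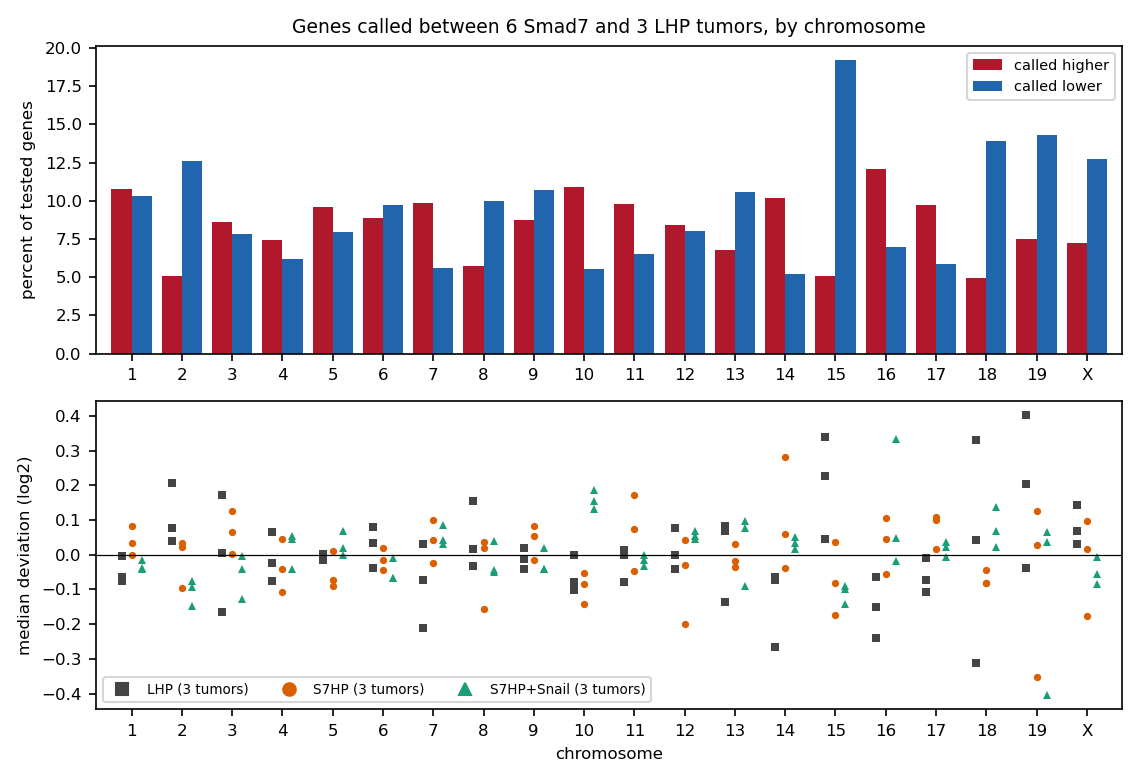
Top, percent of tested genes called higher (red bars) and lower (blue bars) on each chromosome. Bottom, for each tumor the median over the genes of a chromosome of its log2 deviation from the mean of all 9 tumors. Chromosome 15 has the tallest blue bar (19.2%), and its LHP tumors 3 and 6 lie above the 6 Smad7 tumors.

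Promoters could be assigned to 78.8% of tested and 77.3% of called genes from RefSeq (GRCm38.p6), under the 80% needed, so a comparison of motif shares between called and other genes is void. A long HNF1-type motif, GTTAAT, any base, ATT, any base and AC, was found on either strand in 19 of 32851 promoters (0.0578%), and 8 of these belonged to tested symbols. One was Sult1d1, a sulfotransferase in a run of 3 called genes on chromosome 5. It lay at 5.68, 6.57 and 4.89 in LHP and at 6.96 to 10.95 in the Smad7 tumors, and rose by 3.35 ± 0.70 (limma adjusted p = 0.0128, 0.0639 without LHP tumor 6). Its promoter is shown for this motif (RefSeq, GRCm38.p6, chr5:87568957-87569256, minus strand), with the match at position -79 from the start in capitals. The Col7a1 promoter (chr9:108953336-108953635, plus strand) is shown as that of the named collagen with the largest change and holds 1 CAGACA match, a Smad-binding box, at position -182, given in capitals on the opposite strand.

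Sult1d1: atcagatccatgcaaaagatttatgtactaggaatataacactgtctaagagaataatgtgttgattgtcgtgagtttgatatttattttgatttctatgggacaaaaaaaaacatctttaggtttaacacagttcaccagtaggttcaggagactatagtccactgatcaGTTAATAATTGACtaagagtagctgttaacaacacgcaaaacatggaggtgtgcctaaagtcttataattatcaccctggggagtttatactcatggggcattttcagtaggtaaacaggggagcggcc

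Col7a1: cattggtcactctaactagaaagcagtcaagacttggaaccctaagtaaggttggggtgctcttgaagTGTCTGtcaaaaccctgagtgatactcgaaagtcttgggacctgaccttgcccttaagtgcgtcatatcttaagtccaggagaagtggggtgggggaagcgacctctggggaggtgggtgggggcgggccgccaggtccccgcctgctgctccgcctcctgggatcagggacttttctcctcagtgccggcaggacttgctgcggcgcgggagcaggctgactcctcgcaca

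CAGACA occurred on either strand in 21% of all promoters. Neither match says that the factor binds there in these tumors.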

How the data were processed

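RNA of 9 liver tumors was measured with QuantSeq 3′ libraries made from total RNA, per the labels' protocols. The authors deposited, for each tumor, a table of normalized values per gene symbol, which per the file headers and values are log2(quantile-normalized count + 1). Bowtie2, edgeR and the mm10 build are named without version or role in the submitters' processing notes. Only log2 values were used, and no reads or raw counts were analysed here, so no counting intervals are given.

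The tables of the 9 tumors were joined by symbol (24421 symbols). Genes with 3 or more libraries at or above 4 on this scale were kept (14215). Group means were fitted with limma 3.58.1 (R 4.3.3; intensity trend, robust variance) with 6 residual degrees of freedom. The contrast was the mean of S7HP and S7HP+Snail minus LHP, and a second contrast was S7HP+Snail minus S7HP. Calls used a Benjamini-Hochberg adjusted p under 0.05 over all genes tested, and differences are on the log2(value + 1) scale, which understates the change of low genes. Tables were handled in Python 3.11.15 (pandas 2.3.3). The fit was tested on simulated data with 200 of 14215 genes changed: 28% of genes changed by 1 log2 unit were called and 74% of those changed by 2. Of the unchanged genes, 11 were called.

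The comparison, the gene lists and the tests were chosen with earlier results of these data known. The genes named were Smad7, Snai1, Hras and Trp53; the 12 higher and 12 lower genes with the widest gap between groups at a mean level of at least 7, predicted genes passed over; the 5 higher and 5 lower with the largest change among those whose 95% interval for S7HP+Snail minus S7HP lay within 1 of 0; up to 4 called, separated genes per list by adjusted p; genes in runs of at least 3 called neighbors; and list-defining genes that did not pass. Promoters came from RefSeq (GRCm38.p6). Gene positions came from GENCODE, in which 96.1% of tested symbols matched 1 gene. Alternatives were 2 groups in the fit, library weights, a stricter filter at 6, no filter, median-of-ratios scaling, no trend, a pseudocount of 8, and leaving out each tumor.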

Additional observations from a re-analysis of the deposited data

Results flagged for a closer look

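Among the genes examined, 10 of those that separated the 6 Smad7 tumors from LHP also differed between S7HP+Snail and S7HP in limma's test of that difference. Genes that rose against LHP and were lower with Snail were Ocln (-3.16, adjusted p = 0.0204), Gsta1 (-2.69, 0.0178), Apoc4-apoc2 (-2.66, 0.00382), Apoc2 (-2.60, 0.00277), Dgat2 (-1.87, 0.0178), Foxa3 (-1.38, 0.0404) and Acadm (-1.11, 0.0482), with p-values from limma adjusted over all genes tested. Genes that fell against LHP and were higher with Snail were Col7a1 (2.98, adjusted p = 0.00802), Igf1r (2.91, 0.0409) and Lamb1 (2.54, 0.00946). In each, the S7HP+Snail mean lay between LHP and S7HP.

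A single tumor stood apart from the other 5 Smad7 tumors in 3 genes. Foxc2 lay at 1 in S7HP+Snail tumor 14, with a gap of 0.667 of the range, Heyl at 5.52 in S7HP+Snail tumor 13 (0.715) and Cxcl14 at 9.00 in S7HP+Snail tumor 14 (0.662). The Foxc2 value lay below the level of 3 reads in that library (1.22), where values carry no order. All 3 gaps exceeded the 95% critical value of Dixon's test for 6 values, which chance exceeds in about 1 in 20 groups, and 123 genes were examined.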

How the results depend on the processing

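Leaving out each tumor in turn gave 539 to 1303 genes called higher (1219 with all 9), 445 to 1450 lower (1290), 943 to 2332 called without overlap (1945), 38 to 194 called genes that also differed between S7HP+Snail and S7HP (162) and 197 to 557 whose interval for that difference lay within 1 log2 unit (613). The lowest counts of called genes came without LHP tumor 3 or 6, and 1219, 976 and 959 of the 2509 genes remained called without LHP tumor 2, 3 or 6. With 2 groups in the fit, 843 genes were higher and 878 lower, and 1721 of the calls were shared with those reported. In that fit the lists also lost calls by over 1.5 times in EGFR, FGF and PDGF signaling (1 lower), Wnt and Notch (2 lower), YAP and CCN (2 lower), urea cycle (1 higher, 0 lower), cytokines (2 higher, 2 lower), junctions (3 higher), TGF-β targets (0 higher) and endothelial markers (0 in either direction). Cell cycle genes called lower numbered 5 with library weights and 1 without the intensity trend, junction genes called higher 5 without the trend, cytokine genes called lower 2 under the stricter filter, and macrophage markers called lower 2 with library weights. Library weights gave 1604 higher and 1693 lower, and the filter, scaling, trend and pseudocount alternatives gave 1031 to 1213 higher and 1074 to 1347 lower. Of 5861 pairs of a named gene and a setting, 4882 kept direction and call, 979 lost the call and 0 reversed. The cause of these losses was not tested. No scaling moved the median of all genes by 0.1 log2 units. No paired analysis was possible because the groups share no tumor numbers. Depth cannot be recovered fully from quantile-normalized values, and levels below the value of 3 reads were not ordered.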

Other observations

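Some genes of the neighbor runs that belong to none of the lists are given here as values. Uchl1, a ubiquitin hydrolase abundant in neurons, lay at 10.32, 9.70 and 9.89 in LHP and at 4.38 to 5.56 in the 6 Smad7 tumors, with both Smad7 groups at the same level (difference -4.98 ± 0.34, limma adjusted p = 0.000102). Serpinb2, of the clade B serpins, lay at 8.86, 8.69 and 7.31 in LHP and was listed at 0 in 3 of the 6 Smad7 tumors, with a highest value of 3.97, so it passed the filter on low values only through LHP. Tceal5, in a run of 5 called genes on chromosome X with Bex1 and Bex2, lay at 1.87, 0 and 0 in LHP and at 4.02 to 8.97 with Smad7, and passed only through the Smad7 tumors.

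Of genes on the sex chromosomes, looked up after the data were seen, the Y-linked Ddx3y and Uty were measured in all 9 tumors at log2 values of 9.49 to 10.70 and 8.10 to 9.95 and did not pass the test (limma adjusted p = 0.139 and 0.0767). Kdm5d was called, with a difference of 1.10 (limma adjusted p = 0.0346). Xist lay between 0 and 4.81.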
